A study of Mus musculus with 31 samples.

Results

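The transcripts of 10 genes that define or label forebrain interneurons were followed in the basolateral amygdala (BLA) of mice that overexpress human CYFIP1. The genes were chosen by name, with earlier results of these data known, and comprise Dlx1, Dlx2 and Dlx6, Nkx2-1, Lhx6 and Sox6, the calcium-binding proteins Pvalb, Calb1 and Calb2, and the secreted glycoprotein Reln. All 10 were found among the 48709 genes listed for each mouse, and all 10 were among the 17428 genes that reached 10 reads in 20% or more of the libraries, the set on which every test was fitted. RNA came from BLA punches of 31 mice, with the left and right punches of a mouse pooled, and was sequenced as 3′ tags. A transcript therefore gives reads near its 3′ end only and a level in CPM (reads scaled to a common library total) is not divided by length. Mice carried a human CYFIP1 bacterial artificial chromosome on a C57BL/6N background (CYFIP1 OE) or were their wild-type littermates (WT). They came from a pair of lines, labelled 1 and 3, each derived from 1 founder picked for a high copy number, so that a line also stands for 1 transgene insertion event. Line 1 held 8 WT mice (4 male, 4 female, aged 59 to 61 days) and 7 CYFIP1 OE mice (3 male, 4 female, 59 to 77 days). Line 3 held 8 WT mice (4 male, 4 female, 58 to 60 days) and 8 CYFIP1 OE mice (4 male, 4 female, 58 to 64 days). The 4 mice aged 77 days were all CYFIP1 OE mice of line 1, so that age and genotype cannot be told apart for them.

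GABAergic interneurons of the amygdala and cortex are born in the ganglionic eminences of the embryo and migrate to their place. Dlx1 and Dlx2 are homeobox factors that start this programme and act upstream of Dlx5 and Dlx6. Nkx2-1 marks the medial ganglionic eminence, where it switches on Lhx6, which in turn acts through Sox6 in the maturation of parvalbumin and somatostatin cells, whereas calretinin (Calb2) and reelin (Reln) are carried by many cells of caudal origin. Parvalbumin, calbindin and calretinin are EF-hand proteins that buffer calcium and serve as labels for separate interneuron classes. None of these labels is private to interneurons: projection neurons of the striatum carry Calb1 and several Dlx transcripts, thalamic neurons carry Calb2, pallidal neurons carry Pvalb and oligodendrocyte precursors carry Sox6.

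Each library held between 5286925 and 8685521 counted reads (median 7387798), and the members were read at a median of 16 (Dlx2) to 739 (Calb1) reads per mouse. By the correlation of its whole profile with the other mice, 1 library stood apart (CYFIP1 OE mouse 1, male, line 3, connectivity Z-score of -4.74, against -1.18 for the next lowest). Mouse Cyfip1 was at 33.5 CPM in WT and 33.0 CPM in CYFIP1 OE mice (log2 difference -0.02, SE 0.08). The transgene is human and its transcript was not counted here, so this value does not check the genotype labels. The punches held markers of principal cells of the BLA in every mouse (summed level of 16 markers, 696 to 4164 CPM), and also the markers of striatal projection neurons (summed level of 19 tested markers, 499.5 to 7463 CPM, led by Penk, which encodes a precursor of enkephalin), with Drd2 at a median of 0 reads. In such bulk tissue, fewer cells of a type and less RNA per cell cannot be told apart.

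Promoters are shown for Dlx1, Lhx6 and Reln, 3 of the 4 genes with an unadjusted p under 0.05 for the difference between the lines, none of which passed adjustment, and for Dlx2, the neighbour of Dlx1 on chromosome 2, transcribed from the opposite strand. RefSeq promoters (GRCm38.p6, 250 bases before to 50 bases after the start) were found for 7 of the 10 genes: Pvalb, Nkx2-1, Lhx6, Dlx1, Dlx2, Sox6 and Reln, and not for Calb1, Calb2 and Dlx6. Of 5 motifs searched on both strands, capitals mark the matches to the GC box GGGCGG and the CCAAT box (CCAAT). No motif searched is part of another.
Dlx1, chr2:71529195-71529494, plus strand: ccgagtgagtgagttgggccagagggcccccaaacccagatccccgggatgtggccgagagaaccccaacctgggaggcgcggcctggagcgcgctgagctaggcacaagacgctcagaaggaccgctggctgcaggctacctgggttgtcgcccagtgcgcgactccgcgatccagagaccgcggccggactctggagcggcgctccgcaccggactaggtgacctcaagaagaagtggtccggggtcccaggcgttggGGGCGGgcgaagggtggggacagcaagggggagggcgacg
Dlx2, chr2:71546705-71547004, minus strand: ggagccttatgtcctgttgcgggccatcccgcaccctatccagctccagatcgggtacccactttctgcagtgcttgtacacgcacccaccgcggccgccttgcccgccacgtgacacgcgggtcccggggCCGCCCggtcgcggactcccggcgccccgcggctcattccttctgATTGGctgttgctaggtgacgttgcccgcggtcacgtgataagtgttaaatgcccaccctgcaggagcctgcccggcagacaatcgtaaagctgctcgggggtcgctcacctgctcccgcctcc
Lhx6, chr2:36105359-36105658, minus strand, the most upstream of 3 starts: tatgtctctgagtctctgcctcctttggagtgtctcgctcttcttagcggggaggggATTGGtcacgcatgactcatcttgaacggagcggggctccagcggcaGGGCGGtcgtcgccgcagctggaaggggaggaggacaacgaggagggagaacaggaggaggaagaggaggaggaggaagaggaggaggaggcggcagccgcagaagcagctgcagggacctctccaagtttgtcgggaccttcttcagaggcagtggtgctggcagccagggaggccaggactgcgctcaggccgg
Reln, chr5:22344656-22344955, minus strand: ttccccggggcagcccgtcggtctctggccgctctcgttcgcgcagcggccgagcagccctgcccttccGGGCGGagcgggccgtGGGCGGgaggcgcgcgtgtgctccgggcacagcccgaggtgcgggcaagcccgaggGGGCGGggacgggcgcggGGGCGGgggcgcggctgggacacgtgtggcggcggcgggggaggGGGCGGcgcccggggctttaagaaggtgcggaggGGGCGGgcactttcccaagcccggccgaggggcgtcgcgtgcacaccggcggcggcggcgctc

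The Reln promoter held 6 GC boxes, 47 CpG dinucleotides and 80.7% G or C, against a median of 7 CpG and 52.7% over the 32851 promoters of the table. The Dlx1 promoter held 1 GC box and 27 CpG, the Dlx2 promoter 1 GC box, 1 CCAAT box and 29 CpG, and the Lhx6 promoter 1 GC box, 1 CCAAT box and 16 CpG. A GC box was found in 35.7% and a CCAAT box in 37.4% of all promoters. The homeodomain core TAATTA, found in 5.29% of all promoters, the NKX2 core CAAGTG (13.6%) and the TATA box TATAAA (13.6%) were not matched in these 4 windows.

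The members fell over a wide range of levels. Calb1 was the highest, at 102.6 CPM ± 28.2 (SD, n = 31), followed by Reln at 49.1 ± 18.7 and Pvalb at 47.2 ± 37.0. Among the transcription factors, Dlx6 was at 24.4 ± 6.38 CPM, Sox6 at 13.4 ± 4.17 and Dlx1 at 11.4 ± 4.88. Calb2 was at 10.3 ± 11.9 CPM, Lhx6 at 5.89 ± 2.55, Nkx2-1 at 2.82 ± 1.41 and Dlx2 at 2.25 ± 1.06. Within a mouse, Calb1 exceeded Reln in 30 of 31 mice and Dlx6 exceeded Sox6 in 29 of 31. Other neighbours in the order were less separated, Reln being above Pvalb in 21 of 31 mice and Calb2 above Lhx6 in only 15 of 31, so these orders lie within the spread between mice. Dlx1 and Dlx6 overlap antisense genes in the annotation (Dlx1as, median 9 reads, and Dlx6os1, median 61 reads). Since the strand setting of the counting is not stated, the sense and antisense reads cannot be told apart.

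**Figure D1:**
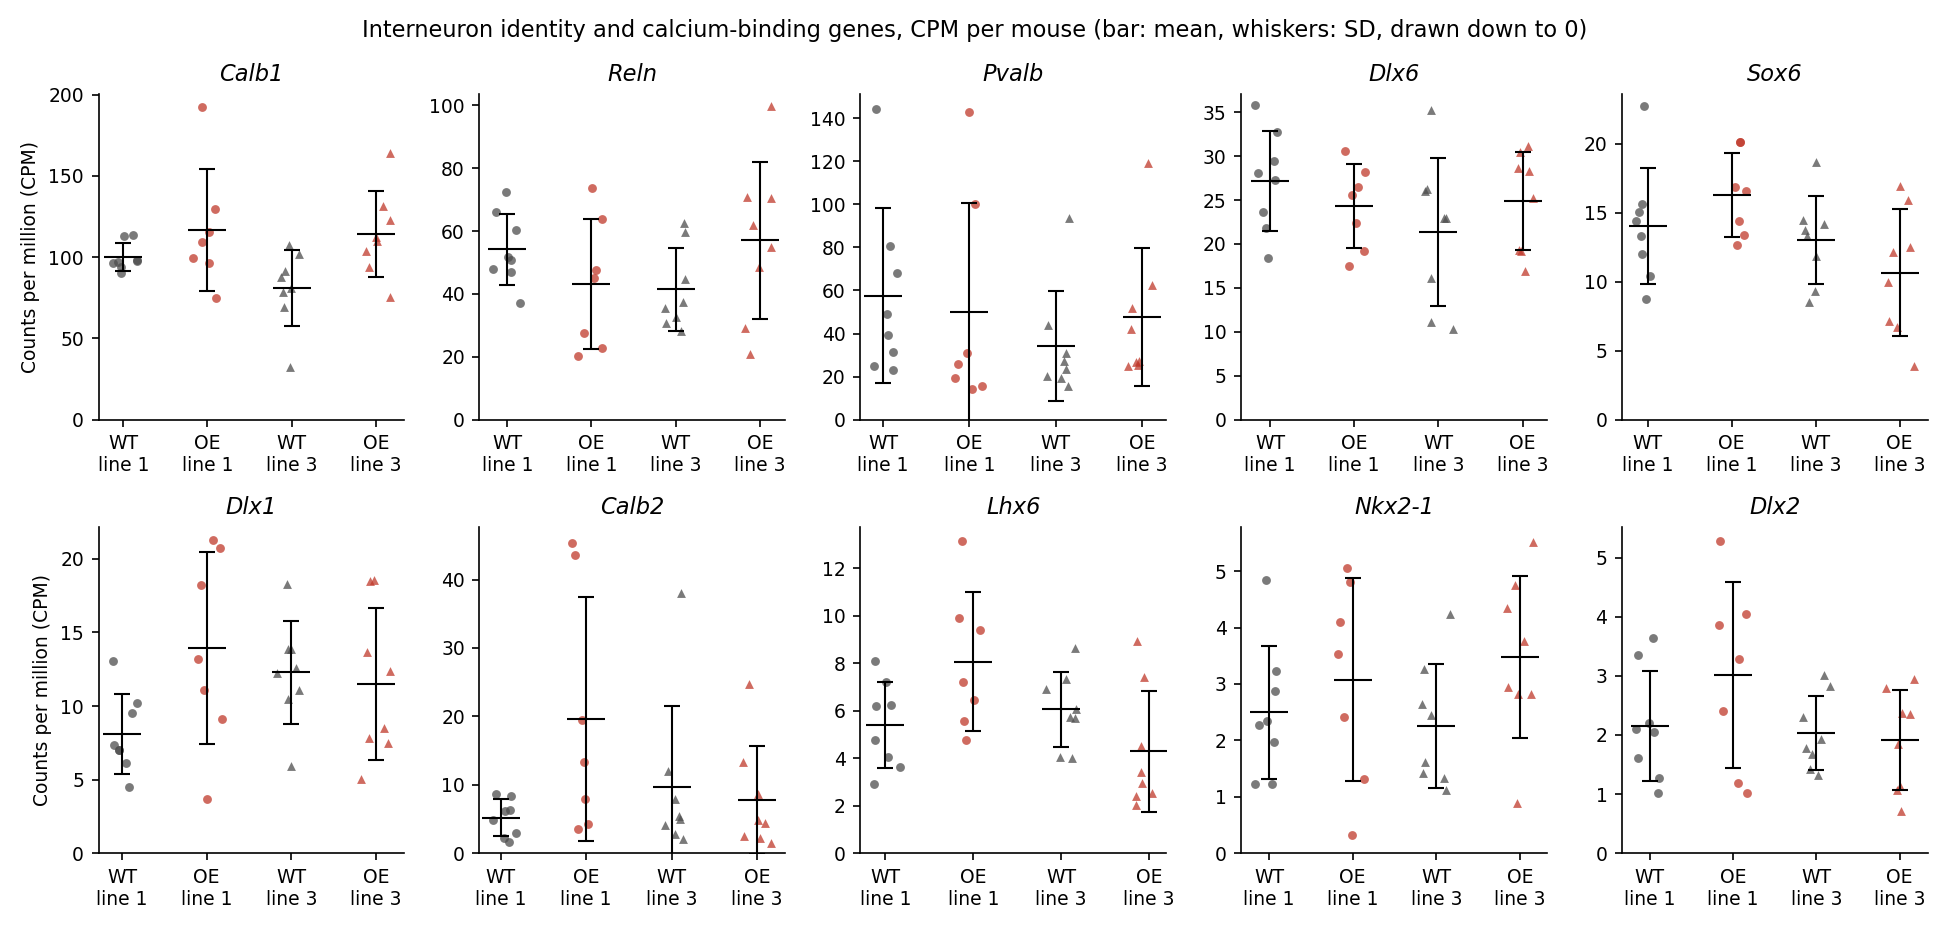
CPM of each of the 10 genes (y axes, each from 0) in every mouse, with genotype and line on the x axis, grey for WT, red for CYFIP1 OE, circles for line 1 and triangles for line 3; bars are means and whiskers the SD. The values of all 4 groups overlap for each gene, and single mice reach 144 CPM of Pvalb and 45.3 CPM of Calb2.

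The genes also differed in their spread between mice. Calb2 had a coefficient of variation of 116% over the 31 mice, more than 97.9% of all tested genes, and its highest mouse was 30.6 times its lowest. Pvalb followed with 78.3%, more than 88.7% of tested genes, and a 10.2-fold range. For both genes, the variation due to counting alone was far smaller, at 11.4% for Calb2 and 5.29% for Pvalb. Nkx2-1 (49.8%) and Dlx2 (47.2%) also varied widely, but counting alone gave 21.9% and 24.4% at their 21 and 17 reads per mouse. Dlx6 (26.1%) and Calb1 (27.5%) were the steadiest of the 10.

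Over both lines together, few of these genes were called between CYFIP1 OE and WT mice. This does not show that the differences are small, as the 95% interval of Calb2 reached from -0.18 to 1.72 on the log2 scale. With sex and line as covariates, edgeR's quasi-likelihood test gave an unadjusted p under 0.05 for 1 of the 10 genes, beside 4.3% of all tested genes, and no gene of the 17428 passed after Benjamini-Hochberg adjustment (smallest adjusted p = 0.942), where 750 had an unadjusted p under 0.05. DESeq2 also called none of the 10. Calb1, the calbindin gene (chromosome 4, 15881264 to 15908064, plus strand, GRCm38), was that 1 gene. Its level ran from 32.4 CPM through a median of 95.1 to 113.5 in WT mice, and from 75.1 through 110.1 to 192.7 in CYFIP1 OE mice. The groups overlapped, 13 of 15 CYFIP1 OE mice exceeding the mean of WT mice, and the log2 difference was 0.36 (SE 0.13, unadjusted p = 0.00797, adjusted p = 0.999). Calb1 and Nkx2-1 are on the list of changed genes that the study drew from the same experiment, so that neither value is independent evidence. The study's list used a p under 0.005 in DESeq2 with 5 sequencing components, a threshold that neither gene reached in the main fit here. The study also removed libraries with a connectivity Z-score below -2, whereas all 31 mice were kept here. Among the 9 WT and 9 CYFIP1 OE mice whose sample names fall into groups that hold both genotypes, with name group in place of line, the Calb1 difference was 0.37 (p = 0.0973). Of these mice, 16 were of line 3, so that this fit says little about line 1.

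Of the other genes, 8 had a higher and 1 (Sox6) a lower fitted level in CYFIP1 OE mice, and none passed the unadjusted threshold. The median log2 difference of the 10 was 0.20, against -0.01 over all genes, of which 48.7% were higher. Calb2 had a difference of 0.77 (SE 0.49, p = 0.121), and without WT mouse 2 this was 1.19 (p = 0.00511). Nkx2-1 had 0.45 (SE 0.29, p = 0.123), and 0.55 (p = 0.0416) without CYFIP1 OE mouse 7. Dlx1 had 0.32 (p = 0.148), Pvalb 0.21 (p = 0.549) and Dlx2 0.19 (p = 0.47). Dlx6, Reln, Lhx6 and Sox6 lay between -0.04 and 0.04, with 95% intervals that reached from -0.25 to 0.33 for Dlx6, -0.33 to 0.40 for Reln, -0.42 to 0.47 for Lhx6 and -0.36 to 0.28 for Sox6.

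Each line was then taken on its own. In line 1, a single name group held both genotypes, with 1 mouse of each. Genotype and name group cannot be told apart for the other mice of line 1. For 4 of the 10 genes, Calb2, Lhx6, Dlx1 and Reln, the genotype difference in line 3 minus that in line 1 had an unadjusted p under 0.05, beside 8.1% of all tested genes. No adjusted p of the 10 genes was below 0.544 (edgeR's quasi-likelihood test, Benjamini-Hochberg), and no tested gene had an adjusted p under 0.05, with 1412 at an unadjusted p under 0.05, while DESeq2 called 2 genes after adjustment, none of the 10. In line 1, Calb2 and Dlx1 had an unadjusted p under 0.05 (background 3.96%), and in line 3 only Calb1 did (background 7.93%).

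Calb2, calretinin (chromosome 8, 110137502 to 110168210, minus strand, GRCm38), had the largest of these differences. In line 1 it ran from 1.61 through a median of 5.53 to 8.72 CPM in WT mice, and from 3.53 through 13.4 to 45.3 CPM in CYFIP1 OE mice. In line 3 it ran from 2.09 through 5.20 to 38.0 CPM in WT mice, and from 1.48 through 4.59 to 24.7 CPM in CYFIP1 OE mice. The groups overlapped in both lines (beside 0.0402% of all genes without overlap in line 1 and 0.0115% in line 3), 5 of 7 CYFIP1 OE mice of line 1 exceeded the mean of WT mice, and the high means rested on a few mice. The log2 difference was 1.91 in line 1 (SE 0.61, p = 0.00358) and -0.38 in line 3 (SE 0.60, p = 0.529), and the difference between the lines was -2.30 (SE 0.85, p = 0.0110). Without WT mouse 2, the highest WT mouse of line 3, the value in line 3 was 0.44 (p = 0.418) and the difference between the lines -1.46 (p = 0.0588).

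Dlx1 and Lhx6, both homeobox factors of the interneuron lineage, had the same signs as Calb2. Dlx1 ran from 4.51 through 7.20 to 13.1 CPM in WT and from 3.71 through 13.2 to 21.3 CPM in CYFIP1 OE mice of line 1, against 5.92 through 12.4 to 18.3 and 5.01 through 10.4 to 18.6 CPM in line 3. The WT mice of line 1 were low beside the other groups, though all ranges overlapped. Its log2 difference was 0.77 in line 1 (SE 0.30, p = 0.0140), 0.62 (p = 0.0508) without CYFIP1 OE mouse 7, and -0.10 in line 3 (SE 0.29, p = 0.737). The difference between the lines of -0.87 (SE 0.41, p = 0.0432) lost its call in 16 of the 31 fits that left out 1 mouse. Lhx6 ran from 2.93 through 5.48 to 8.09 CPM in WT and from 4.77 through 7.23 to 13.2 CPM in CYFIP1 OE mice of line 1, and from 3.998 through 5.91 to 8.63 and from 2.02 through 3.20 to 8.96 CPM in line 3. Overlap was again present in both lines, 6 of 7 CYFIP1 OE mice exceeding the WT average in line 1 and 6 of 8 lying below it in line 3. Its log2 difference was 0.58 in line 1 (SE 0.29, p = 0.0567) and -0.52 in line 3 (SE 0.29, p = 0.0847), with a difference between the lines of -1.09 (SE 0.41, p = 0.0121). Without CYFIP1 OE mouse 1, whose library stood apart, the value in line 3 was -0.75 (p = 0.0129).

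Reln, the extracellular matrix signal that guides neuronal migration, went the other way. It ran from 37.3 through 51.3 to 72.4 CPM in WT and from 20.4 through 45.1 to 73.7 CPM in CYFIP1 OE mice of line 1, and from 28.4 through 36.5 to 62.5 and from 20.8 through 58.5 to 99.8 CPM in line 3. The ranges overlapped, and those of the CYFIP1 OE mice were the wider in both lines. The log2 difference was -0.40 in line 1 (SE 0.25, p = 0.120) and 0.43 in line 3 (SE 0.24, p = 0.0803), with a difference between the lines of 0.83 (SE 0.35, p = 0.0218), or 0.70 (p = 0.0502) without CYFIP1 OE mouse 10. Without the mice aged 77 days, the value in line 1 was -0.03 and the difference between the lines 0.46 (p = 0.256), and that of Lhx6 was -0.90 (p = 0.0691), whereas those of Calb2 (-2.07, p = 0.0421) and Dlx1 (-0.93, p = 0.0418) kept an unadjusted p under 0.05. With 5 surrogate variables as covariates, the difference between the lines was 0.21 for Calb2 (p = 0.687), 0.34 for Dlx1 (p = 0.304), -0.0038 for Reln (p = 0.984) and -0.90 for Lhx6 (p = 0.0786). Sox6 alone then had an unadjusted p under 0.05 (-0.63, p = 0.0420 in edgeR's quasi-likelihood test). The surrogate variables were estimated with sex, line and genotype, but without a genotype by line term. They can therefore take up part of the difference between the lines itself, so this fit cannot decide whether that difference holds.

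Striatal markers moved with these values. Their summed level ran from 3735 through 4790 to 5442 CPM in WT and from 1084 through 3184 to 5919 CPM in CYFIP1 OE mice of line 1, and from 506.7 through 3206 to 6701 and from 499.5 through 4776 to 7463 CPM in line 3. None of the 19 tested markers was higher in CYFIP1 OE mice of line 1 and 18 of 19 were higher in line 3. For the difference between the lines, 11 of the 19 had an unadjusted p under 0.05 (median 1.47), 0 of them after adjustment. With the log2 of this sum as a further covariate, a fit chosen after the data were seen, 0 of the 10 genes kept an unadjusted p under 0.05 for the difference between the lines, in edgeR's quasi-likelihood test. Calb2 then had -0.18 (p = 0.741), Dlx1 -0.32 (p = 0.437), Reln 0.24 (p = 0.391) and Lhx6 -0.84 (p = 0.0516). Within line 1, the Calb2 difference became 0.69 (p = 0.0739) and that of Dlx1 0.46 (p = 0.118), and over both lines that of Calb2 was 0.59 (p = 0.0194).

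**Figure D2:**
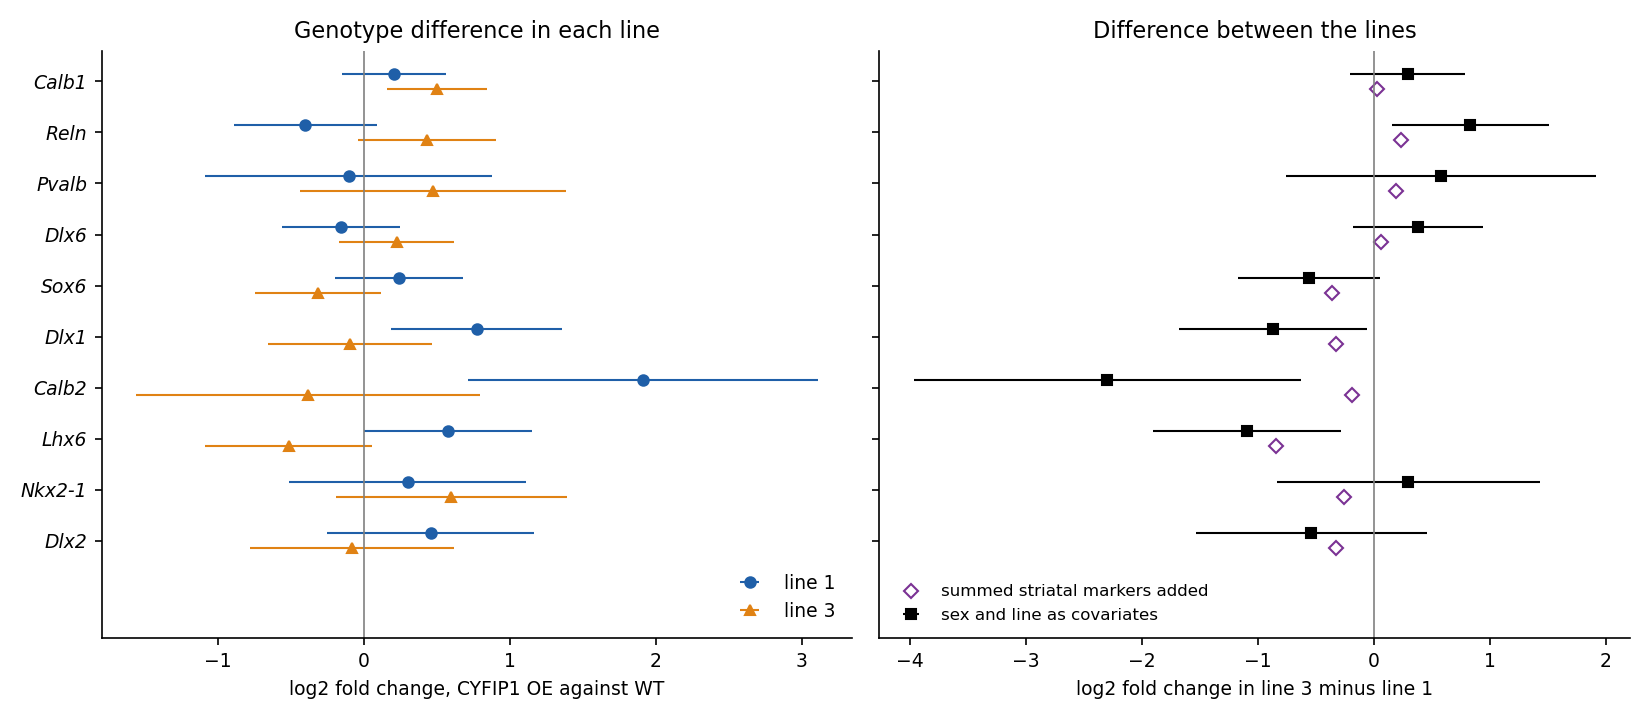
Left, log2 fold change of CYFIP1 OE against WT (x axis) for each gene (y axis) in line 1 (blue circles) and line 3 (orange triangles). Right, the difference between the lines from the fit with sex and line (black squares) and with the summed striatal markers added (open purple diamonds, no interval drawn); lines are 95% intervals. Calb2 goes from -2.30 to -0.18 and Lhx6 from -1.09 to -0.84 when the striatal sum is added.

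Calb1 kept its sign in both lines. In line 3 it ran from 32.4 through 84.5 to 107.7 CPM in WT and from 75.6 through 111.2 to 163.8 CPM in CYFIP1 OE mice, 7 of 8 above the WT mean. In line 1 the range was 90.0 to 113.5 CPM (median 97.3) in WT and 75.1 to 192.7 CPM (median 109.5) in CYFIP1 OE mice. The log2 difference was 0.50 in line 3 (SE 0.18, unadjusted p = 0.00744, adjusted p = 0.514 in edgeR's quasi-likelihood test) and 0.21 in line 1 (SE 0.18, p = 0.266), and the lines did not differ at this error (0.30, SE 0.25, p = 0.252). With the striatal sum as a covariate it was 0.37 in line 3 (p = 0.0274) and 0.34 in line 1 (p = 0.0492). With 5 surrogate variables it was 0.24 in line 3 (p = 0.142), and over both lines also 0.24 (p = 0.0261).

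The remaining 5 genes passed no unadjusted threshold in either line or for the difference between the lines. Nkx2-1 was 0.30 higher on the log2 scale in line 1 (SE 0.41) and 0.60 in line 3 (SE 0.40), where 7 of 8 CYFIP1 OE mice exceeded the WT average. Pvalb had -0.11 in line 1 (SE 0.50) and 0.47 in line 3 (SE 0.46), the widest errors of these 5 genes, and its sign in line 1 turned when any of 5 single mice was left out. Dlx2 had 0.46 and -0.08, Dlx6 -0.16 and 0.23, and Sox6 0.24 and -0.31 in lines 1 and 3, each with a p of at least 0.162. Between the lines themselves, Sox6 was lower in line 3 (11.8 CPM ± 4.01, n = 16) than in line 1 (15.1 ± 3.77, n = 15), with a log2 difference of -0.37 (SE 0.16, unadjusted p = 0.0288), beside 3.31% of tested genes at that threshold. In WT mice alone this difference was -0.11 (p = 0.575). There, Dlx1 (0.59), Reln (-0.41) and Pvalb (-0.74) had an unadjusted p under 0.05 for line 3 against line 1, beside 6.07% of tested genes. The WT levels of Dlx1 and Reln are part of their genotype difference in line 3 minus that in line 1. Reln was lower in male (42.2 ± 16.3 CPM, n = 15) than in female mice (55.6 ± 19.0 CPM, n = 16), by a log2 difference of -0.40 (SE 0.19, unadjusted p = 0.0413, background 4.62%), by -0.33 (p = 0.0761) without the library that stood apart, and by -0.17 (p = 0.339) in WT mice alone. None of these values for line or sex passed adjustment over all genes.

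The genes did not vary as 1 block across mice. Of the 45 pairs, 19 had a positive and 26 a negative Pearson r of log2 CPM, and 8 had an adjusted permutation p under 0.05, of which 3 were positive. Calb2 and Reln were the most strongly related pair (r = -0.74, adjusted permutation p = 0.0009, with a rho of -0.66 and an adjusted permutation p of 0.0027), with r = -0.44 in WT and -0.90 in CYFIP1 OE mice, -0.83 in line 1 and -0.67 in line 3, and -0.67 without the 2 mice farthest from the median of Calb2. Calb2 was positively related to Dlx1 (r = 0.59, adjusted permutation p = 0.00675, and rho = 0.56, permutation p = 0.00128), with r between 0.57 and 0.67 within each genotype and line and 0.48 without the 2 farthest mice. Dlx1 in turn was inversely related to Reln (r = -0.56, adjusted permutation p = 0.00915, and rho = -0.52, permutation p = 0.00302) and to Pvalb (r = -0.58, adjusted permutation p = 0.00747, and rho = -0.57, permutation p = 0.00083). The Pvalb and Dlx1 relation had r = -0.24 in WT and -0.84 in CYFIP1 OE mice, and the difference between these was not tested.

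Calb1 and Dlx6, the steadiest genes, varied together (r = 0.63, adjusted permutation p = 0.00607, and rho = 0.61, permutation p = 0.00047), with 0.73 in WT and 0.55 in CYFIP1 OE mice, 0.30 in line 1 and 0.72 in line 3, and 0.44 without the 2 mice farthest from the median of Calb1. Lhx6 and Sox6, successive factors of the medial lineage, had r = 0.56 (adjusted permutation p = 0.00747) and rho = 0.55 (permutation p = 0.00175), but r was 0.03 among WT and 0.74 among CYFIP1 OE mice, and the difference between these was not tested. Reln was also inversely related to Lhx6 (r = -0.48, rho = -0.45) and Sox6 (r = -0.47, rho = -0.48), both with an adjusted permutation p of 0.0354 for r. Dlx1 and its neighbour Dlx2 had r = 0.40 (adjusted permutation p = 0.101) and rho = 0.45 (adjusted permutation p = 0.0563), with r = 0.01 in WT and 0.58 in CYFIP1 OE mice, and Nkx2-1 and Lhx6 had r = -0.14 and rho = -0.08. Counting alone gave a coefficient of variation of 24.4% for Dlx2 and 21.9% for Nkx2-1, against 47.2% and 49.8% over the mice. How far it weakens an r of theirs was not tested.

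**Figure D3:**
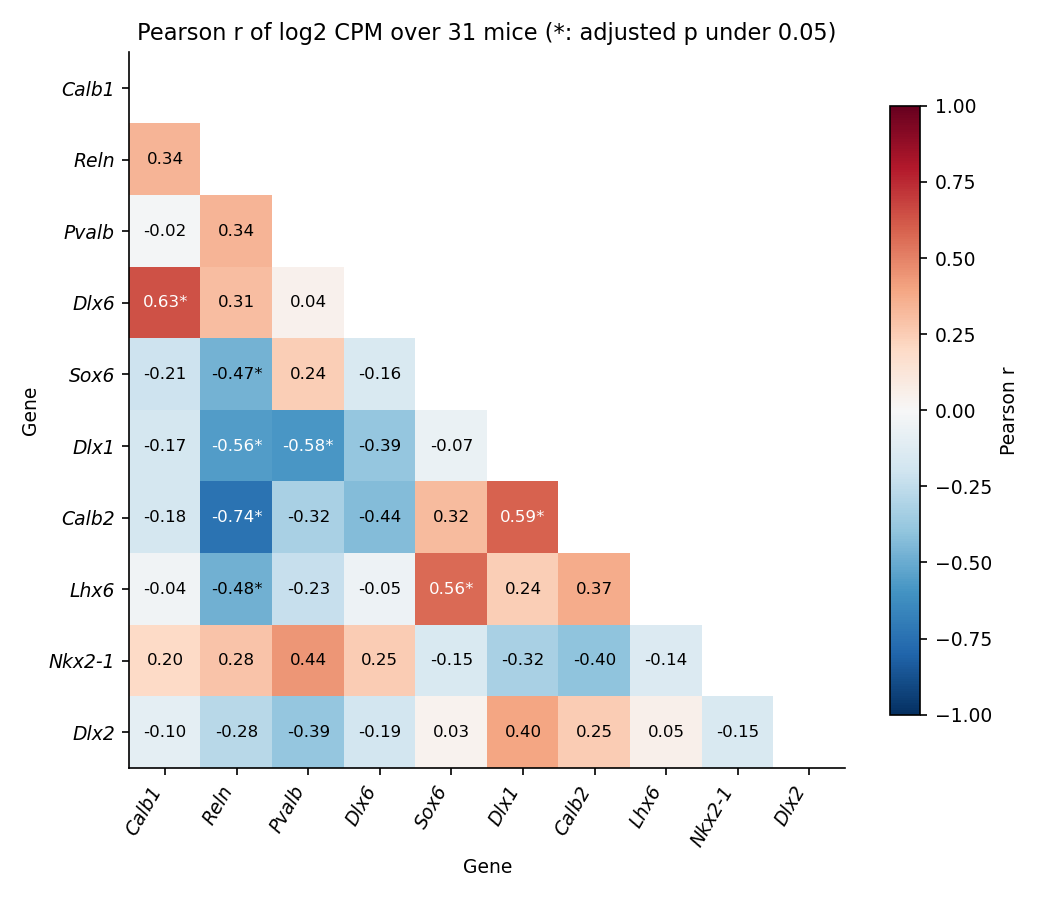
Pearson r of log2 CPM over the 31 mice for each pair of the 10 genes (both axes, ordered by mean CPM), red for positive and blue for negative, with an asterisk where the adjusted permutation p is under 0.05. The 8 marked pairs include 5 negative ones, 4 of them with Reln.

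Each gene was then set against the summed level of 10 marker lists, in 100 relations, of which 30 had an adjusted permutation p under 0.05. Only the gene itself was left out of a list, so that some sums hold others of the 10 genes. Some lists also share marker genes, so the relations are not all separate. Calb2 was inversely related to the striatal list (r = -0.80, adjusted permutation p = 0.0002, and rho = -0.71, adjusted permutation p = 0.000333), with r between -0.78 and -0.87 within each genotype and line, and -0.76 without the 2 farthest mice. Reln was positively related to the same list (r = 0.77, adjusted permutation p = 0.0002, and rho = 0.85, adjusted permutation p = 0.0002), with r between 0.60 and 0.88 within each genotype and line. Dlx1 had the sign of Calb2 (r = -0.57, adjusted permutation p = 0.00562, and rho = -0.67, adjusted permutation p = 0.001). Dlx6 (r = 0.60, adjusted permutation p = 0.0062, and rho = 0.46) and Calb1 (r = 0.49, adjusted permutation p = 0.0371, and rho = 0.56) had that of Reln, with r = 0.30 and 0.13 within line 1 and 0.36 and 0.42 without the 2 farthest mice. These genes were also related to other lists, some of which share genes with the striatal list. The central amygdala list shares Penk (median 8794 reads) and Pdyn with it. The hippocampus and cortex list shares Bcl11b (median 2954 reads). Relations with these lists are therefore not separate from those with the striatal list. Dlx1 had r = -0.66 with the pallidal list, which holds Pvalb and Nkx2-1, and 0.57 with the BLA list. Calb2 had r = -0.61 with the central amygdala, 0.50 with the BLA and -0.50 with the hippocampus and cortex list. Reln had 0.50, -0.49 and 0.59 with the same lists. All of these had an adjusted permutation p under 0.05. The lowest striatal sums, 499.5 and 506.7 CPM, belonged to CYFIP1 OE mouse 1 and WT mouse 2 of line 3, which had the highest Calb2 of their groups.

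**Figure D4:**
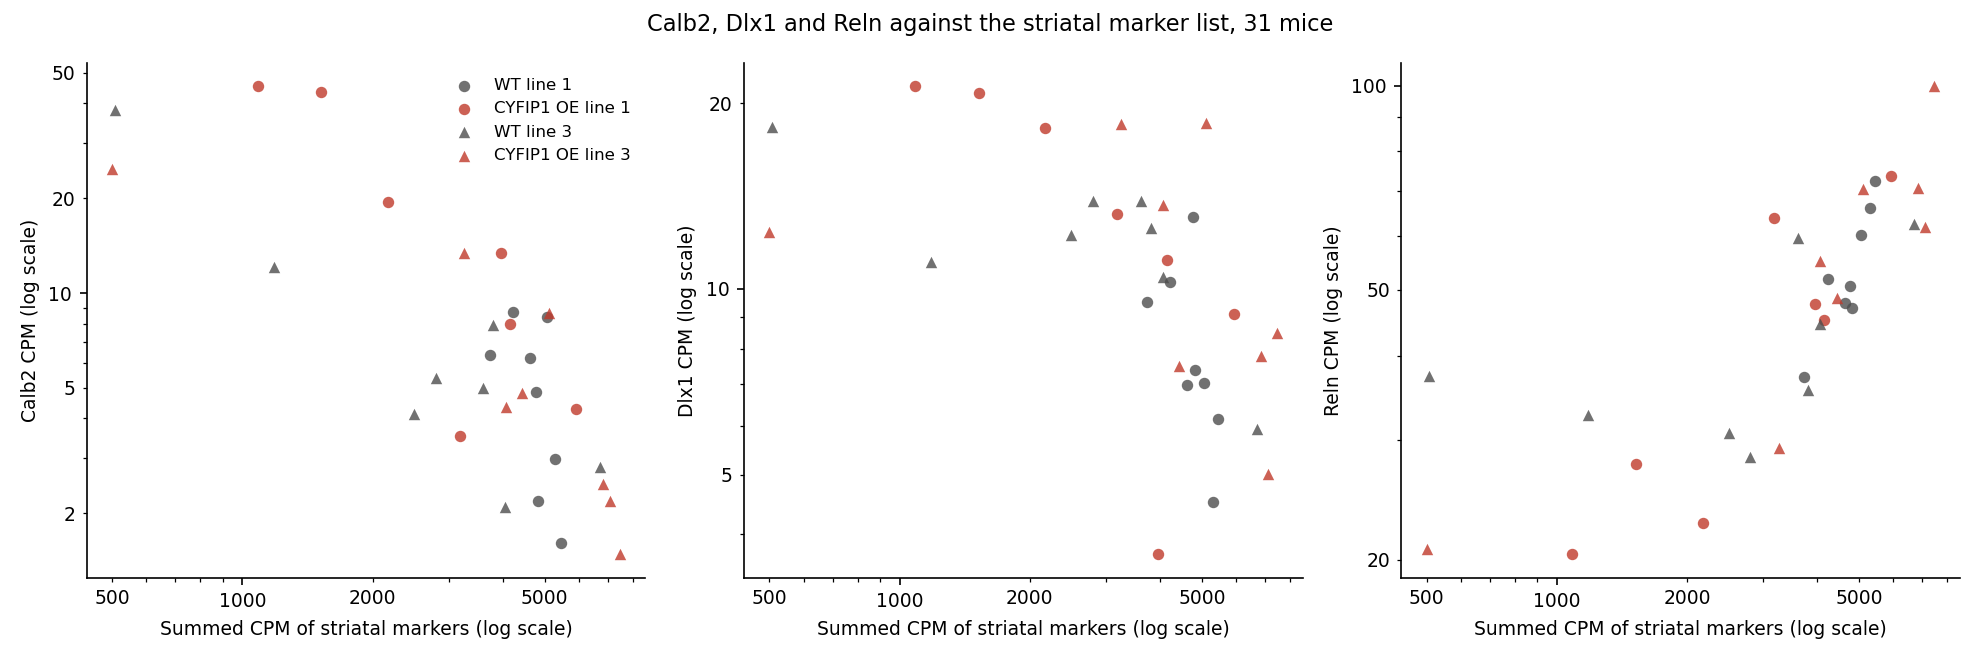
CPM of Calb2, Dlx1 and Reln (y axes, log scale) against the summed CPM of the striatal markers (x axes, log scale), 1 point per mouse, grey for WT, red for CYFIP1 OE, circles for line 1 and triangles for line 3. Calb2 (r = -0.80) and Dlx1 (r = -0.57) fall and Reln (r = 0.77) rises with the striatal sum.

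Pvalb was related to other lists. It was positively related to the oligodendrocyte list (r = 0.77, adjusted permutation p = 0.0002, and rho = 0.79, adjusted permutation p = 0.0002), with r between 0.72 and 0.85 within each genotype and line, and to the list of oligodendrocyte precursors (r = 0.76, rho = 0.78, adjusted permutation p = 0.0002 for both). It was also positively related to the pallidal list (r = 0.67, adjusted permutation p = 0.000857, and rho = 0.75, adjusted permutation p = 0.0002), with r between 0.47 and 0.93 within each genotype and line. It was inversely related to the list of BLA principal cells (r = -0.71, adjusted permutation p = 0.0002, and rho = -0.76, adjusted permutation p = 0.0002), with r between -0.61 and -0.82 within each genotype and line. The oligodendrocyte sum was between 1651 and 9758 CPM in WT and between 1240 and 5718 CPM in CYFIP1 OE mice, and all 15 markers had a lower fitted level in CYFIP1 OE mice (median log2 difference -0.35), none with an unadjusted p under 0.05. With that sum as a covariate, the Pvalb difference was 0.59 in line 3 (p = 0.0465) and 0.16 in line 1 (p = 0.593), a fit also chosen after the data were seen. Nkx2-1 was inversely related to the BLA list (r = -0.61, adjusted permutation p = 0.003, and rho = -0.54, adjusted permutation p = 0.0116), with r = -0.28 in WT and -0.78 in CYFIP1 OE mice. Sox6 was related to the hypothalamus list (r = 0.64, adjusted permutation p = 0.00222, and rho = 0.57), with r = 0.21 in WT and 0.85 in CYFIP1 OE mice. Of the 19 genes of that list, 6 were tested, among them Lhx6 and Nkx2-1. This relation is therefore not separate from that of Sox6 with Lhx6. Of the 30 relations, 6 were with the striatal, 5 with the BLA, 4 with the pallidal, 3 each with the central amygdala, thalamus, hypothalamus and oligodendrocyte lists, 2 with the list of hippocampus and cortex, 1 with that of oligodendrocyte precursors and 0 with the astrocyte list. Lhx6 and Dlx2 had no relation with an adjusted permutation p under 0.05 for r.

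**Figure D5:**
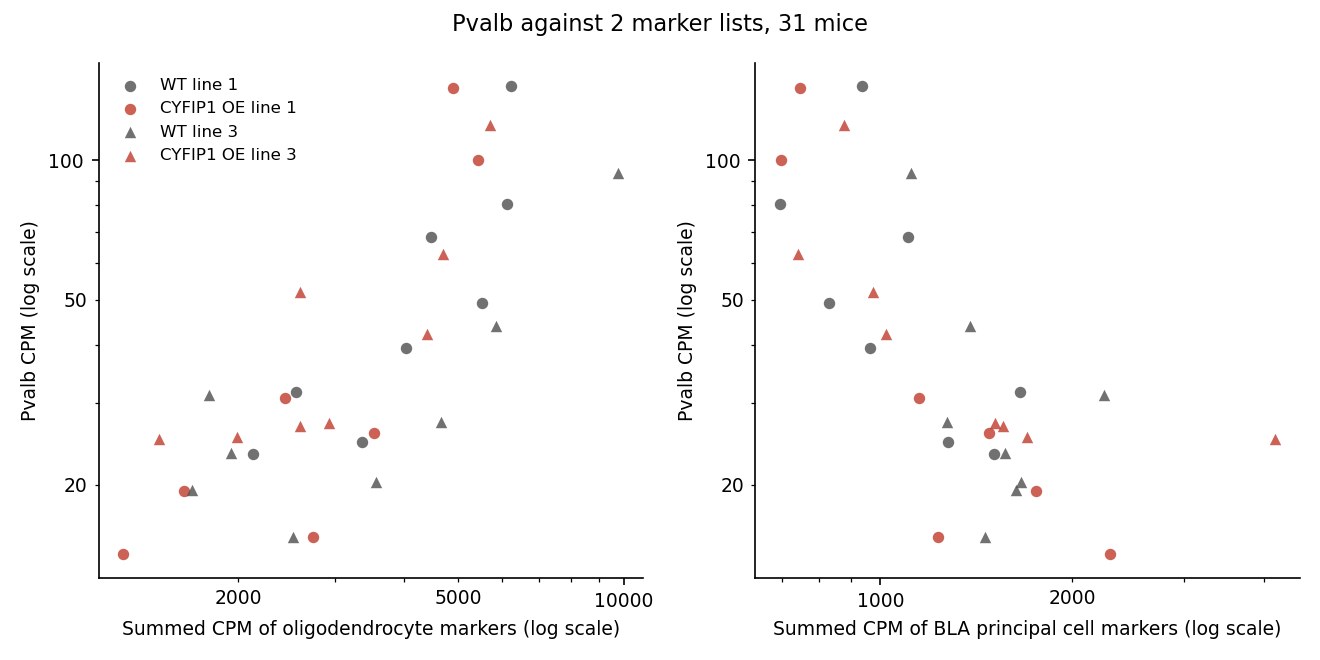
Pvalb CPM (y axes, log scale) against the summed CPM of oligodendrocyte markers (left) and BLA principal cell markers (right, x axes, log scale), 1 point per mouse, with colours for genotype and shapes for line as in the other plots. Pvalb rises with the first list (r = 0.77) and falls with the second (r = -0.71).

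The genes whose pattern over the 31 mice was most like that of a member, among 10965 genes with a mean of at least 5 CPM are given as a description. For Pvalb they were Mag (r = 0.87), a myelin glycoprotein gene, Sept4 (0.86) and Qdpr (0.85). For Reln they were Lpl (0.93), Actn1 (0.91) and Klf9 (0.90), the closest likeness of any member, and for Calb2 they were Galnt16 (0.84), the imprinted gene Nnat (0.83) and Caskin1 (0.83). Dlx1 was most like Dlgap1 (0.81), Amph (0.80) and Pak3 (0.80). Calb1 was most like Gm9989 (0.80), Gm38124 (0.70) and Caln1 (0.69), itself an EF-hand gene, and Dlx6 was most like Gm2415 (0.77), Ppargc1b (0.76) and Ankrd63 (0.75). For Sox6 the first was Akap12 (0.75), for Lhx6 Arhgef1 (0.73), for Dlx2 Nrxn2 (0.71) and for Nkx2-1 Smurf1 (0.68).

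Around the 10 genes, 6 lists of the pathways to which they belong were counted over both lines, beside 4.3% of all tested genes with an unadjusted p under 0.05. Of 6 genes of GABA synthesis and transport, 4 were higher and 1, the glial GABA transporter Slc6a11, had an unadjusted p under 0.05 (log2 difference 0.34, p = 0.0444). Of 13 astrocyte markers, 7 were higher, 4 of them with an unadjusted p under 0.05, beside 4.3% of all genes, and their part in that value was not tested. Named after their values were seen, the synthetic enzymes Gad1 (-0.01) and Gad2 (-0.10) and the vesicular transporter Slc32a1 (0.03, the highest of the list at 190.3 CPM) were close to no difference. Of 24 genes of the medial lineage, 13 were higher and 0 had an unadjusted p under 0.05. Tac1, the highest at 165.0 CPM and also on the striatal list, had -0.04. Nkx2-1 (0.45) and Cox6a2 (-0.28, p = 0.140 in edgeR's quasi-likelihood test) were the genes of smallest p. Of 20 tested genes of the caudal lineage, 12 were higher, and Npas1, a factor of some cortical and pallidal GABA neurons, had 1.18 (SE 0.41, unadjusted p = 0.0062, adjusted p = 0.999 in edgeR's quasi-likelihood test), from 0.947 CPM in WT to 2.20 CPM in CYFIP1 OE mice. Cck, the highest of that list at 204.8 CPM, had 0.04.

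Of 11 tested genes of the Dlx family and its partners, 7 were higher and 0 had an unadjusted p under 0.05. Meis2, the highest at 337.5 CPM, had -0.04, and Dlx5, the partner of Dlx6, 0.35 (p = 0.192). Of 27 tested EF-hand genes, 18 were higher and 2 passed the unadjusted threshold, beside 4.3% of all genes, Calb1 and S100b, a glial gene (0.31, SE 0.15, p = 0.0497). Of 13 tested genes of the reelin pathway, 8 were higher and 0 passed, the receptor gene Vldlr having -0.14 (p = 0.206), Crk 0.11 (p = 0.311) and Cdk5r1, the highest at 628.2 CPM, -0.02. The 6 lists had medians between 0.03 and 0.07 on the log2 scale, against -0.01 over all genes.

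For the difference between the lines, the medial list, which includes Lhx6, had 11 genes with a higher and 13 with a lower value in line 3 (median -0.12). Of its 24 genes, 8 had an unadjusted p under 0.05, 1 higher and 7 lower, beside 8.1% of all genes. The same count was 9 of 27 for the EF-hand list (3 higher, 6 lower), 6 of 20 for the caudal list (3 higher, 3 lower), 4 of 11 for the Dlx list (2 higher, 2 lower), 2 of 13 for the reelin list (both higher) and 0 of 6 for GABA synthesis and transport. None of these had an adjusted p under 0.05. Calb2, already given above, was counted in both the EF-hand and the caudal list. Reln was counted in both the caudal and the reelin list, and Dlx1 in the Dlx list. The counts are therefore not separate from the values of these genes, or from each other. Named after their values were seen, Elfn1, a synaptic protein of somatostatin cells, had 0.67 in line 1 and -0.59 in line 3, and Erbb4, the neuregulin receptor of interneurons, 0.48 and -0.58. Sst, the somatostatin gene, had 0.47 (p = 0.0267) in line 1 and -0.19 (p = 0.347) in line 3, with a difference between the lines of -0.66 (p = 0.0261). Elfn1, Erbb4 and Sst were all taken from the lower side. The medial list ran from -1.27 to 1.70 for this difference, so the named genes do not stand for the list. The striatal sum given above moved with these values too, and its part in them was not tested.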

How the data were processed

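RNA from BLA punches of 31 mice (16 WT, 15 CYFIP1 OE) was sequenced with a QuantSeq 3′ kit. Per the submitters' processing notes and the study's methods, the authors aligned reads with STAR to GRCm38, checked quality with Picard and MultiQC, and deposited expected counts per gene estimated with Salmon; versions are not given in the sources used here. Such estimates divide reads shared by overlapping genes. Gene symbols came from GENCODE (GRCm38), which matched 48349 of 48709 identifiers.

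Expected counts were rounded, filtered (at least 10 reads in at least 20% of mice) and scaled by TMM. Genotype, line and sex were tested with edgeR 4.0.16 in R 4.3.3 (quasi-likelihood, two-sided, sex, line and genotype as terms, genotype nested in line for the differences within lines), with Benjamini-Hochberg adjustment over 17428 genes. An unadjusted p under 0.05 is called only as such, beside its share of all genes. The study used DESeq2 with 5 sequencing components, which were not used here. Fold changes are on the log2 scale. Correlations used log2 CPM (prior count 2), with two-sided permutation tests (100000 resamples, smallest p 1e-05) and adjustment over 45 pairs or 100 relations. The tests were tested on simulated data. The alternatives were DESeq2, RLE factors, other filters, age, surrogate variables (sva), name groups that hold both genotypes, and leaving out each mouse. Surrogate variables were estimated without a genotype by line term, also where they were added to fits of each line. Depth was 5286925 to 8685521 reads per mouse.

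The genes, the pathway and marker lists and the rule for named genes (the 10 genes, Cyfip1, the 3 genes most like each, and from each list the most abundant, the 2 of smallest genotype p and any under 0.05; marker lists give the most abundant only, and a few items are not reported here) were chosen with earlier results of these data known. Each mouse is 1 sample, and nothing says that its library was replicated. The sample names fall into 10 name groups whose meaning the labels do not give, and 7 of 8 WT mice of line 1 share 1 of them, which holds no CYFIP1 OE mouse.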

Additional observations from a re-analysis of the deposited data

Results flagged for a closer look

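Single mice stood far above the rest of their group in 4 of the 40 groups of a gene, genotype and line that were examined with Dixon's gap test on CPM. That test flags about 1 in 20 groups by chance if values are normally spread, which CPM need not be. All 4 flags were on the high side, and Pvalb in WT mouse 7 passed narrowly (0.527 against a critical 0.526). Pvalb was at 144.19 CPM in WT mouse 7 of line 1, against 23.3 to 80.5 CPM in the other mice of that group. It was at 93.8 CPM in WT mouse 1 of line 3 (others 15.4 to 44.0 CPM) and at 119.0 CPM in CYFIP1 OE mouse 13 of line 3 (others 25.1 to 62.7 CPM). Calb2 was at 38.0 CPM in WT mouse 2 of line 3 (others 2.09 to 12.1 CPM), the mouse with the lowest striatal sum of the WT mice (506.7 CPM).

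The genotype difference in line 3 minus that in line 1 had an unadjusted p under 0.05 for 4 of the 10 genes tested, and none passed adjustment over all genes in edgeR's quasi-likelihood test. It was -2.30 for Calb2, -1.09 for Lhx6, -0.87 for Dlx1 and 0.83 for Reln on the log2 scale. Without the library that stood apart, these values were -2.76, -1.32, -0.87 and 0.95.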

How the results depend on the processing

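The 0 members at an adjusted p under 0.05 for genotype held under each alternative. Calb1 kept its sign in each for genotype, but not its call within name groups. The count of members at an unadjusted p under 0.05 for genotype (1) was 0 within name groups (4.55% of all genes), 4 with 5 surrogate variables (5.62%) and 2 with either the striatal (4.97%) or the oligodendrocyte sum (3.82%). That of list genes (4) was 2 with age and 14 with surrogate variables. In line 1 (2) it was 0 with surrogate variables (4.6%) and 1 with the striatal (2.86%) or the oligodendrocyte sum (3.09%). In line 3 (1) it was 2 without the filter (9.38%), 3 without the library that stood apart (9.01%) and 2 with the oligodendrocyte sum (8.8%). For the difference between the lines (4) it was 2 without the mice aged 77 days (5.36%), 1 with surrogate variables (3.59%) and 0 with the striatal sum (5.41%). For line (1) it was 3 in WT mice alone (6.07%), for sex (1) 0 without the library that stood apart (4.59%), and 13 in place of 8 pairs were called on residuals. Leaving out 1 mouse gave 1 to 2 members for genotype, 0 to 0 after adjustment, 2 to 6 list genes, 1 to 4 members in line 1, 1 to 3 in line 3 and 2 to 5 for the difference between the lines. The causes were not tested.

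Signs turned for these values. For genotype, Lhx6 was -0.057 without the library that stood apart, -0.17 with age, -0.17 without the mice aged 77 days, -0.20 within name groups, -0.031 with the striatal and -0.027 with the oligodendrocyte sum. With surrogate variables Dlx6 was -0.095, Sox6 0.053 and Reln -0.067. Sox6 was 0.0038 with the oligodendrocyte sum and Reln -0.013 with the striatal sum. In line 1, Pvalb was 0.16 with surrogate variables, 0.019 with the striatal and 0.16 with the oligodendrocyte sum, Dlx6 0.037 with the striatal sum, and Sox6 -0.036 without the mice aged 77 days. In line 3, Calb2 was 0.62 and 0.50, Dlx1 0.57 and 0.13 and Dlx2 0.44 and 0.025 with surrogate variables and the striatal sum, Dlx2 was 0.063 without the library that stood apart, and Dlx6 was -0.048 and Reln -0.07 with surrogate variables. For the difference between the lines, surrogate variables gave 0.21 for Calb2, 0.34 for Dlx1, 0.35 for Dlx2 and -0.0038 for Reln, and the striatal sum -0.26 for Nkx2-1. As the surrogate variables were estimated without a genotype by line term, they can take up part of this difference. For line, WT mice alone gave 0.86 for Calb2, -0.16 for Nkx2-1 and 0.16 for Lhx6, and Reln was 0.016 without the library that stood apart. For sex, WT mice alone gave 0.065 for Nkx2-1, -0.11 for Lhx6, -0.059 for Dlx1 and -0.0020 for Dlx6. Leaving out 1 mouse turned the sign of Pvalb (-0.027 to 0.35), Lhx6 (-0.070 to 0.10), Dlx6 (-0.022 to 0.10), Sox6 (-0.11 to 0.027) and Reln (-0.042 to 0.11) for genotype, of Pvalb in line 1 (-0.63 to 0.16), and of Calb2 (-0.85 to 0.44), Dlx1 (-0.25 to 0.026) and Dlx2 (-0.24 to 0.063) in line 3. Nkx2-1 and Dlx2 gave no value with at least 10 reads in every mouse. At 2 to 40 and 4 to 36 reads per mouse, depth limits both. By replicate number, no paired analysis was possible because the numbers only name the mice, and the fit within name groups was run in its place.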
